A study of Mus musculus with 24 samples.

Results

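The mRNA levels of 45 genes of the integrated stress response and the unfolded protein response were followed in mouse hippocampus after neonatal hypoxia-ischemia, in which the newborn brain is deprived of both blood flow and oxygen. The genes were taken by name from a deposited table of 22314 named lines, and all 45 were among the 18364 genes with enough reads to be tested. They fell into 6 classes by known role: 7 transcription factors of the integrated stress response, 6 feedback regulators and stress effectors, 8 targets of ATF4 in amino acid metabolism and transport, 6 sensors with the transcription factors they activate, 14 chaperones and folding enzymes of the endoplasmic reticulum (ER), and 4 genes of ER-associated degradation. The animals were mouse pups on postnatal day 10, and total RNA of the hippocampus was sequenced for a 3 h and a 6 h time point of hypoxia-ischemia. Wild-type (WT) pups and pups labelled as lacking Neil1 or Neil2, both of them DNA glycosylases that start base excision repair of oxidized bases, were used. The hippocampus on the injured side (ipsilateral) and the one on the other side (contralateral) gave separate libraries. This made 12 groups of 2 libraries: WT contralateral, WT ipsilateral, labelled Neil1-KO contralateral, labelled Neil1-KO ipsilateral, Neil2-KO contralateral and Neil2-KO ipsilateral, each at 3 h and at 6 h. All 12 groups, controls included, had gone through hypoxia-ischemia, so the contralateral hippocampus is not an uninjured reference. The labels call the samples of a group biological replicates, and a contralateral and an ipsilateral library with the same replicate number are taken as 1 animal. For strain, knockout alleles and breeding of the controls nothing is given in the sources used.

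As background, cells respond to several stresses by phosphorylating the translation factor eIF2α, which lowers protein synthesis in general but favours translation of the transcription factor ATF4. The kinases that do this respond to unfolded protein in the ER (PERK, encoded by Eif2ak3), to missing amino acids (GCN2, encoded by Eif2ak4), to double-stranded RNA and to heme or mitochondrial stress. The unfolded protein response has PERK in common with it and adds a pair of ER sensors, IRE1α (encoded by Ern1), which splices Xbp1 mRNA, and ATF6, which is cut at the Golgi to release a transcription factor. XBP1 and ATF6 raise chaperones and degradation genes, while ATF4 raises amino acid genes and, under lasting stress, CHOP (encoded by Ddit3). Both responses are known to be switched on in brain tissue by lack of oxygen and glucose. Phosphorylation, cleavage and splicing are not visible in a table with one value per gene, so only mRNA levels are described here.

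Read depth lay between 17771293 and 29252067 reads per library. Values are normalized counts, that is, reads divided by a size factor for each library. Neil2 stood at 0 to 3.02 normalized counts in the Neil2-KO libraries and at 15.15 to 28.7 in the others. Neil1 was not lower in the labelled Neil1-KO libraries (91.64 to 154.6 normalized counts) than in WT (56.75 to 122.59), and which part of the gene was deleted is not given, so these libraries are called labelled Neil1-KO throughout. Xist exceeded 1000 normalized counts in 6 libraries, which were both sides of 3 animals, namely the second replicate of Neil2-KO at 6 h and of labelled Neil1-KO at either time. In WT it was at most 20.2 normalized counts, so high Xist was not balanced between WT and the knockouts. A fit without these animals leaves 1 library in each of their groups. Choroid plexus RNA varied between libraries, with Ttr above 10000 normalized counts in 8 of 24. Labelled Neil1-KO ipsilateral 6 h replicate 2 had the highest share of reads on unnamed lines, 12.48% against a lowest share of 8.41%.

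Most of the 45 genes were higher on the injured side by 6 h. Averaged over the 3 genotypes, 35 rose, 2 fell and 8 did not pass the test at 6 h, where 24% of all genes tested rose, 24.7% fell and 48.7% were called in either direction. At 3 h, 21 of the 45 rose and 3 fell, where 14.1% of all genes rose, 17.4% fell and 31.6% were called. A gene was called when the Benjamini-Hochberg adjusted p of limma's moderated test over all genes was under 0.05. The median log2 difference of the 45 genes was 0.25 at 3 h and 0.50 at 6 h, beside 0.01 and 0.02 over all genes tested. At 6 h all 6 ipsilateral libraries lay above all 6 contralateral ones for 20 of the 45 genes, and below them for Atf6 and Sel1l. Of all genes tested, 9.55% were separated upward and 12.1% downward in the same way. The separated genes at 3 h were 14 upward (7.07% of all genes) and again Atf6 and Sel1l downward (11.2% of all genes). Within each genotype the counts were as follows. In WT 7 rose and 3 fell at 3 h, where 2.49% of all genes rose, 1.79% fell and 4.29% were called, and 25 rose and 2 fell at 6 h (10.4%, 10.3% and 20.6%). In labelled Neil1-KO 19 rose and 2 fell at 3 h (7.20%, 9.85% and 17%), and 33 rose and 2 fell at 6 h (17.6%, 21.4% and 39%). In Neil2-KO 9 rose and 3 fell at 3 h (4.29%, 4.95% and 9.24%), and 21 rose and 2 fell at 6 h (12.2%, 12.6% and 24.8%). The counts of called members at 3 h depended on single libraries, and the share of all genes called moved with them. In WT they fell from 10 to 2 without contralateral replicate 2 (0.909% of all genes called), to 5 without ipsilateral replicate 1 (1.5%) and to 3 without ipsilateral replicate 2 (0.844%). In labelled Neil1-KO the count fell from 21 to 11 without contralateral replicate 2 (6.70% of all genes). Among Neil2-KO libraries it fell from 12 to 7 without contralateral replicate 1 (2.78%) or replicate 2 (4.17%) and to 4 without ipsilateral replicate 2 (1.57%). The labelled Neil1-KO count at 6 h was 22 in place of 35 without the animals of high Xist, where the share of all genes fell from 39% to 16.3%.

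**Figure D1:**
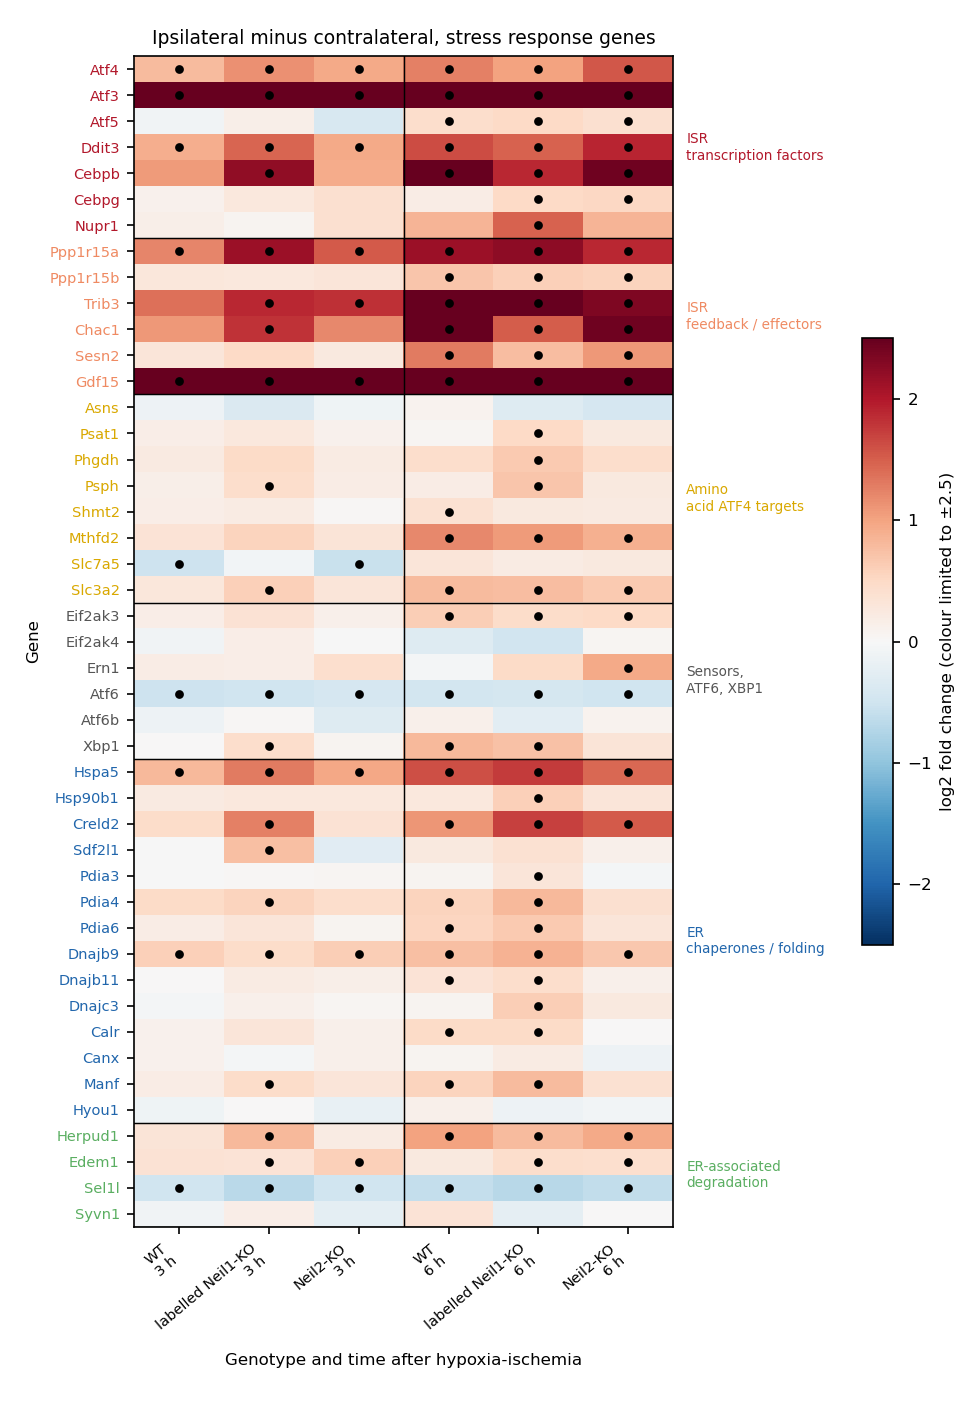
Log2 difference between the ipsilateral and the contralateral hippocampus for each of the 45 genes (rows, by class) in the 3 genotypes at 3 h and 6 h (columns, 2 libraries per side); colour saturates at the ends of its scale and a dot marks a call (limma, adjusted p under 0.05). Atf3 and Gdf15 are dark red in all 6 columns, while Atf6 and Sel1l are blue in all 6.

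These are bulk libraries, in which fewer cells of a type and less RNA per cell cannot be told apart. Markers of other cell content moved with the side. Of 12 neuron markers 8 were lower ipsilaterally at 3 h and all 12 at 6 h, and their summed level was 166158 to 195409 normalized counts in the contralateral libraries and 81904 to 152940 in the ipsilateral ones at 6 h. Of 7 endothelial markers 5 were higher at 3 h and 6 at 6 h, with sums of 4315 to 4853 contralaterally and 5830 to 13851 ipsilaterally at 6 h. No marker of either list was at 0 in any library. Of all genes tested, 14.1% were called higher and 17.4% lower at 3 h, and 24% higher and 24.7% lower at 6 h. Choroid plexus markers differed by side in opposite directions between genotypes at 6 h, with sums of 33295 to 34915 contralaterally and 1462 to 1793 ipsilaterally in WT, and of 1167 to 1172 and 14964 to 26487 in labelled Neil1-KO. In Neil2-KO they were 2108 to 35397 and 1842 to 2130. With a choroid plexus term in the fit 25 of the 45 genes were called in WT at 6 h, 26 for labelled Neil1-KO and 27 for Neil2-KO (18.2%, 25.1% and 26.6% of all genes). The 6 thalamus markers summed to 2423 to 2601 contralaterally and 3307 to 4446 ipsilaterally in WT at 6 h, to 2362 to 2439 and 2584 to 2638 in labelled Neil1-KO, and overlapped between sides in Neil2-KO. The part of these shifts in the levels of the 45 genes was not tested.

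The sensors and the factors they activate did not move in one direction. Of the 6 genes in this class, 3 rose, 1 fell and 2 did not pass the test at 6 h, and the median difference was 0.22 (log2). At that time 24% of all genes rose and 24.7% fell. At 3 h, 1 fell and 5 did not pass, where 14.1% of all genes rose and 17.4% fell. A single fall among 6 genes is not above these shares. Atf6, which encodes the ER-anchored precursor of the ATF6 factor, was lower on the injured side. Contralateral Atf6 at 3 h stood at 1077 and 1034 normalized counts in the WT replicates, 870.5 and 942 in labelled Neil1-KO replicates and 1070 and 964 in those of Neil2-KO, and ipsilateral Atf6 at 794 and 694, 643 and 641, and 765 and 757. For Atf6 at 6 h the contralateral values were 1045 and 1059, 1021 and 899, and 1073 and 895 in the same order, and the ipsilateral ones 792 and 739.7, 734 and 681, and 676 and 715. The ipsilateral levels of Atf6 lay below the contralateral ones at both times without overlap, by -0.47 ± 0.06 at 3 h and -0.46 ± 0.06 at 6 h (log2, mean over genotypes ± SE, adjusted p = 2.12e-05 and 8.41e-06). In each of the 6 comparisons of genotype and time Atf6 was called lower, with differences between -0.51 and -0.42. Its relative Atf6b was not called at either time (-0.14 and -0.02).

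Xbp1, which encodes the factor made active by IRE1α, was called at 6 h and not at 3 h. In WT Xbp1 measured 1963 and 1560 normalized counts contralaterally and 1739 and 1769 ipsilaterally at 3 h, and 1222 and 1093 and then 2185 and 1906 at 6 h. Labelled Neil1-KO libraries held Xbp1 at 1451 and 1202 against 1665 and 1922 at 3 h and at 1155 and 1068 against 1874 and 1850 at 6 h. Neil2-KO libraries held Xbp1 at 1715 and 1636 against 1594 and 1929 at 3 h and at 1579 and 1534 against 1941 and 1982 at 6 h. The sides overlapped at 3 h, where Xbp1 differed by 0.17 ± 0.07 (adjusted p = 0.0889), and were separated at 6 h, where it rose by 0.63 ± 0.07 (adjusted p = 1.53e-06). Spliced and unspliced forms are not separated in the table. Eif2ak3, the gene of PERK, also had its call at 6 h. Normalized counts of Eif2ak3 at 3 h were 539 and 527 (WT), 442 and 486 (labelled Neil1-KO) and 517 and 622 (Neil2-KO) on the contralateral side and 612 and 586, 504 and 709, and 541 and 703 on the ipsilateral side. Those of Eif2ak3 at 6 h were 489 and 489.8, 518 and 534, and 589 and 511 contralaterally and 728 and 764, 808 and 637, and 763 and 792 ipsilaterally. It differed by 0.22 ± 0.09 at 3 h (adjusted p = 0.0776, and 0.0468 with the animal as a block) and rose by 0.52 ± 0.09 at 6 h (adjusted p = 1.35e-04), with no overlap of sides at 6 h. Ern1, the gene of IRE1α, was called at 6 h with 0.46 ± 0.16 (adjusted p = 0.029). That call was lost without the animals of high Xist, and also in 5 fits that each left out 1 library: WT contralateral replicate 1, WT ipsilateral replicate 2, labelled Neil1-KO contralateral replicate 1, Neil2-KO contralateral replicate 2 or Neil2-KO ipsilateral replicate 1, all of 6 h. Eif2ak4, the gene of GCN2, was not called (0.03 at 3 h and -0.25 at 6 h).

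All 7 transcription factors of the integrated stress response rose at 6 h, with a median of 1.27 (log2), where 24% of all genes rose. At 3 h 5 of 7 rose, with a median of 0.96, where 14.1% of all genes rose. Before their values, the promoter letters of this branch are shown, since ATF4 is known to bind a composite site together with C/EBP factors, a family that includes Cebpb and Cebpg. RefSeq promoters (build GRCm38.p6, 250 bases before the start) were at hand for 40 of the 45 genes. The letters TGATGNAA, read on either strand, occurred in 5 of these 40 (12.5%) and in 1056 of 27025 genes of the table (3.91%). These 5 were Atf3, Chac1, Nupr1, Herpud1 and Asns, from 4 different classes. A match is a description of letters and not a binding site. The genes were chosen by known role, so a higher share among them is no test. The stretches below run 5′ to 3′ on the gene's strand up to the base before the start, with the fixed letters of the match in capitals, and for Herpud1 also those of a second motif described with the degradation genes.
Atf3 (chr1:191183334-191183453, minus strand): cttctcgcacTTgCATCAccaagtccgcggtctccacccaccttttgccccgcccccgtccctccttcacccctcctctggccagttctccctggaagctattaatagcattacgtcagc
Chac1 (chr2:119351042-119351241, plus strand): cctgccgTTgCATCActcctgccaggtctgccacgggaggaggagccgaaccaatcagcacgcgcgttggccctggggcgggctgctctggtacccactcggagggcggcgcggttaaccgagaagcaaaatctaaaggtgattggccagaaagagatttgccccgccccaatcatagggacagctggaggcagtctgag
Nupr1 (chr7:126625471-126625590, minus strand): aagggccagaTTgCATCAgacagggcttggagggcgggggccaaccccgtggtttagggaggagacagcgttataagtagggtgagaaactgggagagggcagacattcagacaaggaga
Herpud1 (chr8:94386309-94386428, plus strand): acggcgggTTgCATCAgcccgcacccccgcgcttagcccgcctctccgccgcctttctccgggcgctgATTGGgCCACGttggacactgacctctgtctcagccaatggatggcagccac
Asns (chr6:7693210-7693269, minus strand): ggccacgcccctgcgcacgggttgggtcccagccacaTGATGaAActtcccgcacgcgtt
The 8 letters of Atf3, Chac1, Nupr1 and Herpud1 were the same, TTgCATCA, read on the gene's strand. The match began 110 bases before the start in Atf3 and Nupr1, 112 in Herpud1, 193 in Chac1 and 23 in Asns. At 6 h the first 4 of these genes rose between sides and Asns did not pass the test.

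Atf3, an early stress-induced repressor and activator of transcription, had the largest difference between sides among the 45 genes as the mean over genotypes on the log2(value + 1) scale. Contralateral Atf3 at 3 h stood at 444 and 53.2 normalized counts in the WT replicates, 28.9 and 13.1 in labelled Neil1-KO replicates and 23.2 and 159.9 in those of Neil2-KO, and ipsilateral Atf3 at 3361 and 3949, 3785 and 3211, and 3364 and 4528. For Atf3 at 6 h the contralateral values were 26.9 and 22.4, 21.8 and 31.7, and 114 and 38.5 in the same order, and the ipsilateral ones 4146 and 2551, 3124 and 3461, and 5492 and 5351. Ipsilateral levels of Atf3 were at least 2551 normalized counts in every library, whereas contralateral ones were spread from 13.1 to 444 at 3 h. Atf3 rose by 5.98 ± 0.45 at 3 h and by 6.74 ± 0.45 at 6 h (log2, adjusted p = 3.57e-08 and 3.51e-09). The rise in WT at 3 h, 4.55, was the smallest of the 6 comparisons and below that of Gdf15 (5.07), and there WT contralateral replicate 1 held 444. Ddit3, the gene of CHOP, a factor linked to cell death under lasting ER stress, rose at both times. In WT Ddit3 measured 308 and 207 normalized counts contralaterally and 436 and 521 ipsilaterally at 3 h, and 188 and 180.3 and then 654 and 504 at 6 h. Labelled Neil1-KO libraries held Ddit3 at 173 and 157 against 411 and 504 at 3 h and at 164 and 172 against 488 and 445 at 6 h. Neil2-KO libraries held Ddit3 at 233 and 221 against 360.4 and 528 at 3 h and at 217 and 170 against 698 and 742 at 6 h. The sides of Ddit3 did not overlap at either time, and the rise was 1.10 ± 0.12 at 3 h and 1.67 ± 0.12 at 6 h (adjusted p = 1.85e-06 and 5.28e-09). Cebpb, a C/EBP factor of inflammatory and stress transcription, was more variable. Normalized counts of Cebpb at 3 h were 127 and 191 (WT), 69.1 and 51.3 (labelled Neil1-KO) and 134 and 178 (Neil2-KO) on the contralateral side and 321 and 336, 274 and 284, and 233 and 372 on the ipsilateral side. Those of Cebpb at 6 h were 56.8 and 64.6, 53.6 and 57.3, and 113 and 85.02 contralaterally and 269 and 447, 295 and 146, and 756 and 375 ipsilaterally. Ipsilateral values of Cebpb at 6 h ran from 146.3 in labelled Neil1-KO replicate 2 to 756 in Neil2-KO replicate 1, and all lay above the contralateral ones. The rise was 1.40 ± 0.20 at 3 h and 2.27 ± 0.20 at 6 h (adjusted p = 5.23e-05 and 8.85e-08). For Cebpb 20.7% of its exon bases overlap those of Tmem189 on the opposite strand (GENCODE vM21, GRCm38), and whether reads were counted by strand is not given.

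Atf4 itself rose at the mRNA level, by 0.96 ± 0.12 at 3 h and 1.27 ± 0.12 at 6 h, with ipsilateral libraries between 3892 and 5140 normalized counts at 3 h and between 3953 and 4952 at 6 h, above every contralateral library. Cebpg, the partner of ATF4, rose by 0.26 at 3 h and 0.39 at 6 h. Atf5, another factor translated under eIF2α phosphorylation, differed by -0.11 at 3 h without passing the test and rose by 0.44 at 6 h. Nupr1, a small stress-induced chromatin protein, differed by 0.20 ± 0.29 at 3 h and rose by 1.05 ± 0.29 at 6 h, at levels between 18.43 and 130.5 normalized counts. The sides overlapped for Nupr1 at 6 h, and its call was lost without the animals of high Xist. The call of Cebpg at 3 h was lost in 10 of 24 fits that each left out 1 library, and was lost too without the animals of high Xist.

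**Figure D2:**
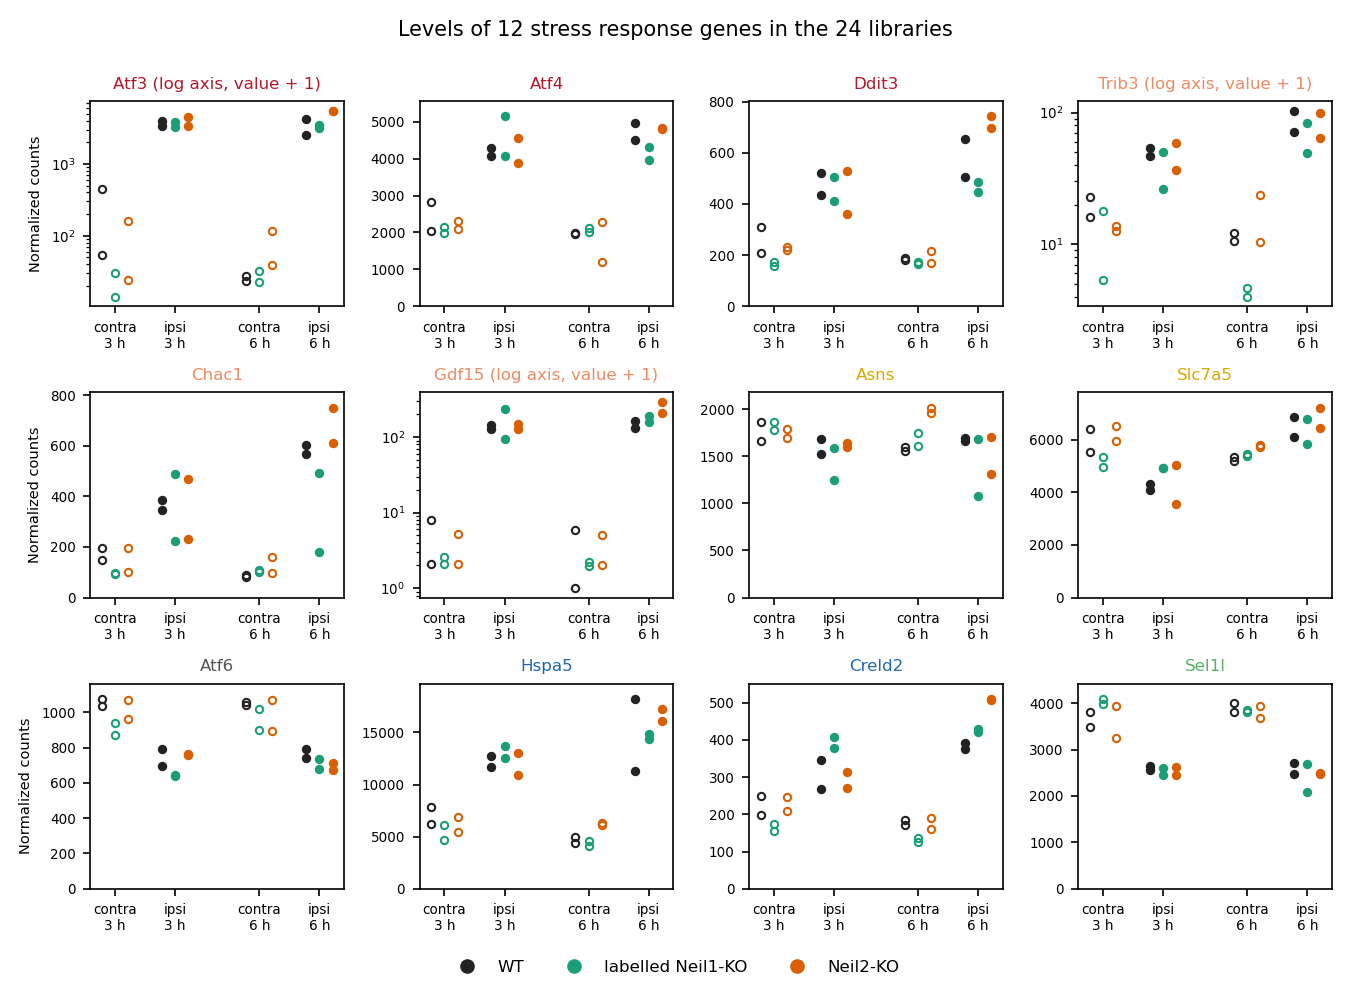
Normalized counts of 12 of the genes in each of the 24 libraries (vertical axes), by side and time (horizontal axis) and genotype (colour), with open circles for the contralateral side; Atf3, Trib3 and Gdf15 are on a log axis after adding 1. Ipsilateral circles lie above all contralateral ones at both times for Atf3, Atf4, Ddit3, Trib3, Chac1, Gdf15, Hspa5 and Creld2 and below them for Atf6 and Sel1l, while those of Asns overlap.

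The feedback and effector class had the highest median of the classes, 1.5 at 3 h and 2.16 at 6 h (log2). In this class 5 of 6 genes rose at 3 h and 6 of 6 at 6 h, where 14.1% and 24% of all genes rose. Ppp1r15a, the gene of GADD34, the inducible subunit that directs the phosphatase back to eIF2α, had the smallest adjusted p of the 45 genes. Contralateral Ppp1r15a at 3 h stood at 1168 and 714 normalized counts in the WT replicates, 616 and 511 in labelled Neil1-KO replicates and 639 and 787 in those of Neil2-KO, and ipsilateral Ppp1r15a at 2060 and 2217, 2550 and 2358, and 1945 and 2183. For Ppp1r15a at 6 h the contralateral values were 585 and 459, 523 and 450, and 824 and 655 in the same order, and the ipsilateral ones 2441 and 2133, 2373 and 2188, and 2767 and 2649. Every ipsilateral library exceeded every contralateral one, including WT contralateral 3 h replicate 1 with 1168. The rise of Ppp1r15a was 1.63 ± 0.11 at 3 h and 2.08 ± 0.11 at 6 h (adjusted p = 6.24e-09 and 1.89e-10). Its constitutive counterpart Ppp1r15b rose by 0.28 at 3 h and 0.61 at 6 h, and the call at 3 h was lost without the animals of high Xist and in 3 fits that left out 1 library. The exons of Ppp1r15b share 11.4% of their bases with Gm26616 on the opposite strand.

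Gdf15, a secreted cytokine induced by cell stress, was nearly absent contralaterally. In WT Gdf15 measured 1.1 and 6.95 normalized counts contralaterally and 127 and 145 ipsilaterally at 3 h, and 4.81 and 0 and then 163 and 132 at 6 h. Labelled Neil1-KO libraries held Gdf15 at 1.61 and 1.09 against 231 and 94.1 at 3 h and at 0.993 and 1.22 against 190 and 156 at 6 h. Neil2-KO libraries held Gdf15 at 4.22 and 1.07 against 127 and 148 at 3 h and at 1.05 and 3.98 against 292 and 206 at 6 h. Summed over 6 libraries, Gdf15 had 15 contralateral and 937 ipsilateral reads at 3 h, and 11 and 1318 at 6 h. The ratios after size-factor scaling were 57.1 (95% interval 34.4 to 102) and 93.9 (52.3 to 189), where the intervals cover counting error only. On the fitted scale Gdf15 rose by 5.48 ± 0.41 and 6.19 ± 0.41 (adjusted p = 3.05e-08 and 3.00e-09). Trib3, the pseudokinase that acts as a brake on ATF4 and CHOP, was low in count but separated. Normalized counts of Trib3 at 3 h were 21.9 and 15.1 (WT), 16.9 and 4.37 (labelled Neil1-KO) and 11.6 and 12.8 (Neil2-KO) on the contralateral side and 45.5 and 52.98, 25.2 and 49.3, and 35.7 and 57.7 on the ipsilateral side. Those of Trib3 at 6 h were 9.62 and 11.2, 2.98 and 3.66, and 9.44 and 22.6 contralaterally and 102 and 70.8, 82.3 and 48.1, and 62.6 and 98.4 ipsilaterally. No ipsilateral library of Trib3 fell below a contralateral one of the same time, and it rose by 1.70 ± 0.29 at 3 h and 3.05 ± 0.29 at 6 h (adjusted p = 2.66e-04 and 1.97e-07). Chac1, which breaks down glutathione, rose by 1.37 ± 0.25 and 2.24 ± 0.25. Its ipsilateral levels at 6 h ran from 181.5 in labelled Neil1-KO replicate 2 to 750 in Neil2-KO replicate 2. Sesn2, an inhibitor of the growth kinase mTORC1 under amino acid lack, differed by 0.35 ± 0.17 at 3 h (adjusted p = 0.118) and rose by 1.06 ± 0.17 at 6 h (adjusted p = 4.15e-05).

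The ATF4 targets of amino acid metabolism and transport had smaller median differences than the factors and effectors. At 6 h, 7 of 8 rose, with a median of 0.33 (log2), where 24% of all genes rose and 24.7% fell. At 3 h, 3 rose, 1 fell and 4 did not pass, where 14.1% of all genes rose and 17.4% fell. Slc3a2, the heavy chain shared by several amino acid exchangers, rose at both times. Contralateral Slc3a2 at 3 h stood at 3475 and 3571 normalized counts in the WT replicates, 3096 and 2925 in labelled Neil1-KO replicates and 3412 and 3499 in those of Neil2-KO, and ipsilateral Slc3a2 at 4196 and 4331, 4620 and 4447, and 3934 and 4628. For Slc3a2 at 6 h the contralateral values were 2936 and 2759, 3043 and 2849, and 3278 and 3927 in the same order, and the ipsilateral ones 5142 and 4735, 4855 and 5252, and 5881 and 5415. The sides of Slc3a2 did not overlap within either time, and it rose by 0.39 ± 0.06 at 3 h and 0.74 ± 0.06 at 6 h (adjusted p = 7.70e-05 and 2.48e-08). Its partner Slc7a5, the light chain that imports large neutral amino acids, fell at 3 h and rose at 6 h. In WT Slc7a5 measured 5535 and 6421 normalized counts contralaterally and 4073 and 4311 ipsilaterally at 3 h, and 5333 and 5183 and then 6853 and 6099 at 6 h. Labelled Neil1-KO libraries held Slc7a5 at 5338 and 4953 against 4911 and 4925 at 3 h and at 5395 and 5444 against 5841 and 6773 at 6 h. Neil2-KO libraries held Slc7a5 at 5947 and 6506 against 3544 and 5043 at 3 h and at 5804 and 5740 against 7220 and 6444 at 6 h. At 3 h ipsilateral values of Slc7a5 were the lower ones in WT and Neil2-KO but close to the contralateral ones in labelled Neil1-KO, and at 6 h all ipsilateral libraries lay above all contralateral ones. The differences were -0.38 ± 0.08 (adjusted p = 0.00106) and 0.25 ± 0.08 (adjusted p = 0.0111), and the call at 6 h was lost without the animals of high Xist. Mthfd2, a mitochondrial enzyme of one-carbon metabolism, rose most in this class. Normalized counts of Mthfd2 at 3 h were 249 and 203 (WT), 221 and 194 (labelled Neil1-KO) and 239 and 221 (Neil2-KO) on the contralateral side and 258 and 318, 228 and 407, and 235 and 347 on the ipsilateral side. Those of Mthfd2 at 6 h were 157 and 196, 194 and 173, and 229.8 and 227 contralaterally and 443 and 371, 460.5 and 319, and 378 and 470.4 ipsilaterally. Mthfd2 overlapped between sides at 3 h (0.41 ± 0.14, adjusted p = 0.0376) and did not at 6 h (1.05 ± 0.14, adjusted p = 9.17e-06). Its call at 3 h was lost with the animal as a block (adjusted p = 0.0544), without the animals of high Xist and in 7 of 24 fits that left out 1 library. Psph, which makes serine in the last step of its synthesis, changed by less. Contralateral Psph at 3 h stood at 408 and 381 normalized counts in the WT replicates, 368 and 389.8 in labelled Neil1-KO replicates and 401 and 424 in those of Neil2-KO, and ipsilateral Psph at 419.5 and 457, 587 and 442, and 460.2 and 476. For Psph at 6 h the contralateral values were 425 and 404, 368 and 356, and 428 and 446 in the same order, and the ipsilateral ones 537 and 416, 542 and 642, and 552 and 492. The sides of Psph overlapped at both times, with rises of 0.25 ± 0.08 and 0.38 ± 0.08 (adjusted p = 0.0247 and 8.56e-04), and the call at 3 h was lost in 6 fits that left out 1 library. The exons of Psph share 10.4% of their bases with Cct6a. Of the other serine and glycine enzymes, Phgdh rose by 0.51, Shmt2 by 0.28 and Psat1 by 0.26 at 6 h, and none of them passed the test at 3 h. Asns, asparagine synthetase and a textbook ATF4 target, was the gene of this class that did not pass at either time, with -0.20 ± 0.09 (adjusted p = 0.109) and -0.21 ± 0.09 (adjusted p = 0.068). With the animal as a block the value of -0.21 for Asns at 6 h passed (adjusted p = 0.035). Ipsilateral levels of Asns at 6 h were 1079 to 1698 normalized counts and contralateral ones 1551 to 2014.

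Of the 14 ER chaperones and folding enzymes 10 rose and 4 did not pass at 6 h, where 24% of all genes rose. At 3 h 6 rose and 8 did not pass, where 14.1% of all genes rose. The median was 0.18 at 3 h and 0.35 at 6 h (log2), but single genes stood far above it. This class is known to be driven by ATF6 and XBP1 through the ER stress response element (ERSE), so its letters were searched in the RefSeq promoters. The letters CCAAT and, after 9 bases of any kind, CCACG were found on either strand in 8 of the 40 genes (20%), against 35 of 27025 in the whole table (0.13%). Of the 12 chaperone genes with a promoter 7 held them (58.3%), the eighth gene being Syvn1 of the degradation class. The class was set by known role, so its higher share is a description and no test. Printed here are those of the chaperones that rose most, Hspa5 and Creld2, and of the genes that held the letters but did not pass the test, Canx and Syvn1, with the fixed letters in capitals.
Hspa5 (chr2:34771980-34772089, plus strand): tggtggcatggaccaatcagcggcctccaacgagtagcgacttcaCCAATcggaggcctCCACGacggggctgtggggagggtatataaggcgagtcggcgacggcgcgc
Creld2 (chr15:88819506-88819645, plus strand): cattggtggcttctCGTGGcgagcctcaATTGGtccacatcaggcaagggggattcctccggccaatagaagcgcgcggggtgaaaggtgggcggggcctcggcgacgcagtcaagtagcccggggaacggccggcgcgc
Canx (chr11:50325674-50325823, minus strand): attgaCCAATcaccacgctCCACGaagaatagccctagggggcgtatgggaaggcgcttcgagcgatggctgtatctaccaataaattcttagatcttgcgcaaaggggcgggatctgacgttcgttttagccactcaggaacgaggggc
Syvn1 (chr19:6046516-6046575, plus strand): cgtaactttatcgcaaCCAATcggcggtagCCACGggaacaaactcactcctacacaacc
In Creld2 the letters read on the other strand, so they appear as CGTGG and ATTGG. The holders did not share one size of change. At 6 h Hspa5 rose by 1.60, Creld2 by 1.45, Pdia6 by 0.50, Hsp90b1 by 0.39, Calr by 0.32 and Dnajc3 by 0.31, whereas Canx (0.05) and Syvn1 (0.04) did not pass. Hsp90b1 held the letters at a pair of places. Another element of this branch, TGACGTGG (UPRE), was found in none of the 40 genes and in 0.603% of all, which says only that these letters are not in this window.

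**Figure D3:**
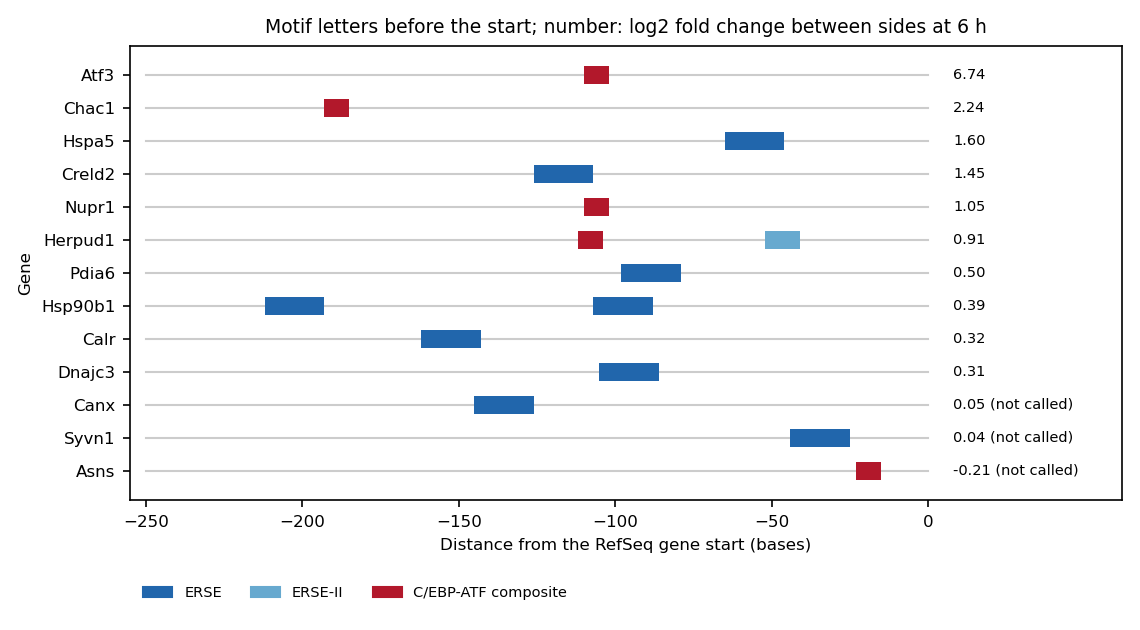
Places of the searched letters in the 250 bases before the RefSeq start (horizontal axis, bases from the start) of the 13 genes that held any, ordered by the log2 difference between sides at 6 h printed at the right; dark blue is ERSE, light blue ERSE-II and red the C/EBP-ATF composite. Genes with and without a call at 6 h both hold ERSE letters, and Asns, at the bottom, holds a composite match with a difference of -0.21.

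Hspa5, the gene of BiP, a major ER chaperone that also holds the sensors inactive, rose at both times. In WT Hspa5 measured 7856 and 6200 normalized counts contralaterally and 11723 and 12778 ipsilaterally at 3 h, and 4971 and 4402 and then 18224 and 11339 at 6 h. Labelled Neil1-KO libraries held Hspa5 at 6112 and 4669 against 13748 and 12594 at 3 h and at 4579 and 4116 against 14839 and 14381 at 6 h. Neil2-KO libraries held Hspa5 at 6870 and 5449 against 10930 and 13033 at 3 h and at 6302 and 6081 against 16067 and 17258 at 6 h. All ipsilateral libraries held at least 10930 normalized counts of Hspa5 and all contralateral ones at most 7856. The rise was 1.02 ± 0.11 at 3 h and 1.60 ± 0.11 at 6 h (adjusted p = 1.76e-06 and 3.19e-09). Creld2, a folding factor released under ER stress, had the largest difference between the times among called genes. Normalized counts of Creld2 at 3 h were 249 and 199 (WT), 174 and 156 (labelled Neil1-KO) and 246 and 210 (Neil2-KO) on the contralateral side and 269 and 347, 378 and 408, and 271 and 314 on the ipsilateral side. Those of Creld2 at 6 h were 170.3 and 184, 125 and 135, and 191 and 161 contralaterally and 391 and 376, 420.2 and 430.5, and 510.2 and 508 ipsilaterally. The sides of Creld2 were separated at both times, with the contralateral libraries lower and the ipsilateral ones higher at 6 h than at 3 h by median (204.5 to 165.5 and 330.3 to 425.4 normalized counts). Creld2 rose by 0.69 ± 0.09 at 3 h and 1.45 ± 0.09 at 6 h (adjusted p = 1.47e-05 and 1.16e-09). Dnajb9, a co-chaperone of BiP that also restrains IRE1α, was called at both times. Contralateral Dnajb9 at 3 h stood at 628 and 618 normalized counts in the WT replicates, 631 and 549 in labelled Neil1-KO replicates and 638 and 576 in those of Neil2-KO, and ipsilateral Dnajb9 at 973 and 924, 772 and 847, and 869 and 989.8. For Dnajb9 at 6 h the contralateral values were 618 and 589, 549.9 and 559.8, and 640 and 692 in the same order, and the ipsilateral ones 1147 and 896, 1050 and 963, and 985 and 1142. The difference of Dnajb9 was 0.56 ± 0.07 at 3 h and 0.76 ± 0.07 at 6 h (adjusted p = 1.52e-05 and 1.54e-07), without overlap of the sides. Pdia4, a disulfide isomerase, rose by 0.49 and 0.59, and Manf, a secreted survival factor held in the ER, by 0.31 and 0.57. Hsp90b1, the gene of GRP94, rose by 0.25 and 0.39, and the calls of Hsp90b1 and Manf at 3 h were lost without the animals of high Xist, that of Hsp90b1 also in 4 fits that left out 1 library. Pdia6 (0.50), Calr (0.32), Dnajc3 (0.31) and Dnajb11 (0.30) rose at 6 h and did not pass at 3 h, and of these calls that of Dnajc3 was lost without the animals of high Xist. The 4 genes of the class that passed at neither time were Sdf2l1 (0.25 at 6 h), Pdia3 (0.11), Canx (0.05) and Hyou1 (-0.02). Exons of Hsp90b1 share 10.3% of their bases with 1810014B01Rik on the opposite strand.

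Genes of ER-associated degradation, which sends misfolded proteins back to the cytosol, did not move as a group. At 6 h 2 of 4 rose, 1 fell and 1 did not pass, with the same counts at 3 h. Over all genes, 24% rose and 24.7% fell at 6 h, and 14.1% and 17.4% at 3 h. With 4 genes the counts cannot be set apart from these shares. Sel1l, the scaffold of the main ubiquitin ligase complex, fell. In WT Sel1l measured 3497 and 3806 normalized counts contralaterally and 2638 and 2560 ipsilaterally at 3 h, and 3815 and 4003 and then 2709 and 2474 at 6 h. Labelled Neil1-KO libraries held Sel1l at 3975 and 4093 against 2458 and 2602 at 3 h and at 3813 and 3847 against 2681 and 2091 at 6 h. Neil2-KO libraries held Sel1l at 3929 and 3256 against 2617 and 2457 at 3 h and at 3674 and 3936 against 2494 and 2466 at 6 h. Every ipsilateral library held less Sel1l than every contralateral one, by -0.55 ± 0.06 at 3 h and -0.63 ± 0.06 at 6 h (adjusted p = 5.78e-06 and 3.57e-07). Sel1l was called lower in all 6 comparisons of genotype and time. Its ligase partner Syvn1 (HRD1) differed by -0.05 and 0.04 and was not called. Herpud1, an ER membrane protein that links the complex to ubiquilins, rose instead. Normalized counts of Herpud1 at 3 h were 897 and 756 (WT), 624 and 528 (labelled Neil1-KO) and 919.6 and 772 (Neil2-KO) on the contralateral side and 989.6 and 1079, 992 and 1035, and 873 and 1074 on the ipsilateral side. Those of Herpud1 at 6 h were 557 and 599, 512 and 499, and 731 and 575 contralaterally and 1194 and 1129, 1094 and 709, and 1189 and 1302 ipsilaterally. The sides of Herpud1 overlapped at both times, at 6 h by a single ipsilateral library, labelled Neil1-KO replicate 2 with 709. The rise was 0.45 ± 0.10 at 3 h and 0.91 ± 0.10 at 6 h (adjusted p = 0.00208 and 7.75e-07). The Herpud1 promoter printed above also holds ERSE-II (ATTGG, any base, then CCACG, on either strand), which was found in 1 of the 40 genes and in 10 of 27025 (0.037%). Edem1, which takes mannose-trimmed proteins to degradation, rose by 0.44 ± 0.06 and 0.37 ± 0.06.

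Other genes of the same pathways were counted from lists, whose genes share roles with the classes above. Of all genes tested, 14.1% rose and 17.4% fell at 3 h, and 24% rose and 24.7% fell at 6 h. Of 12 other eIF2 kinases and initiation factors, 3 rose and 2 fell at 3 h, and 4 rose and 3 fell at 6 h. Eif2ak2, the kinase that senses double-stranded RNA (0.52), and Eif2b2 (0.44) were the highest at 6 h, and Eif2b5 (-0.31) and Eif2ak1, the heme-regulated kinase (-0.26), the lowest. Both Eif2b genes encode subunits of the exchange factor of eIF2. Of 13 tRNA synthetase and tRNA export genes reported as ATF4 targets 5 fell and 8 did not pass at 3 h, and 2 rose and 4 fell at 6 h. Cars1 (0.25) and Tars1 (0.22) were the highest and the tRNA exporter Xpot (-0.35) and Wars1 (-0.30) the lowest. Of 19 other ATF4 targets 6 rose and 2 fell at 3 h, and 12 rose and 2 fell at 6 h. Eif4ebp1, a translation repressor (1.96), and Nfe2l2, the gene of NRF2 (1.27), led the rises, and Vldlr, a lipoprotein receptor (-0.69), and Slc7a11, the cystine importer (-0.28), were the lowest. Of 38 other ER folding, translocation and degradation genes 4 rose and 10 fell at 3 h, and 10 rose and 10 fell at 6 h. The counts of this list at 6 h lie near the shares of all genes. Derl3, a degradation channel subunit (2.15), and Creb3l2, an ER-anchored factor (1.21), were the highest, and Mbtps2, the protease that completes cleavage of ATF6 (-0.62), and Wfs1 (-0.61) the lowest. Wfs1 is also one of the 8 hippocampal subfield markers, of which 7 fell at 6 h. The median differences of these 4 lists at 6 h were 0.04, -0.01, 0.29 and 0.03.

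The difference between sides moved upward from 3 h to 6 h for a few genes, and for Slc7a5 this was a change from a fall to a rise. The difference between sides changed with time, as the mean over genotypes, for 5 of the 45 genes, all upward, where 1.90% of all genes were called, 1.43% upward and 0.463% downward. These were Creld2 (0.76 ± 0.12, log2, adjusted p = 0.00725), Slc7a5 (0.63 ± 0.11, adjusted p = 0.0105), Atf5 (0.55 ± 0.10, adjusted p = 0.0177), Xbp1 (0.46 ± 0.10, adjusted p = 0.0309) and Slc3a2 (0.35 ± 0.08, adjusted p = 0.0374). With the animal as a block 3 calls were left, and Xbp1 (adjusted p = 0.0516) and Slc3a2 (0.0656) were lost. Without the animals of high Xist none of the 5 passed, with values between 0.38 and 0.78 and adjusted p between 0.0774 and 0.107, while Trib3 (2.05) and Sesn2 (0.95) did. Creld2, Slc7a5 and Atf5 kept their calls in all 24 fits that left out 1 library, whereas Xbp1 kept it in 11 and Slc3a2 in 8. Over all 45 genes the median change was 0.26, and 40 were positive, beside a median of -0.01 over all genes. The larger values of Trib3 (1.36), Cebpb (0.87), Chac1 (0.87), Nupr1 (0.85) and Atf3 (0.77) did not pass the test.

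Each side was also followed on its own. Between 3 h and 6 h, 9 of the 45 genes rose in the ipsilateral libraries and 36 did not pass, where 5.14% of all genes rose, 7.52% fell and 12.7% were called in either direction. Nupr1 rose by 1.05 ± 0.29, Slc7a5 by 0.56 ± 0.08, Sesn2 by 0.55 ± 0.17, Mthfd2 by 0.46 ± 0.14, Atf5 by 0.45 ± 0.07, Creld2 by 0.41 ± 0.09, Ppp1r15b by 0.32 ± 0.09, Eif2ak3 by 0.30 ± 0.09 and Slc3a2 by 0.26 ± 0.06. Atf3 (0.08), Atf4 (0.07) and Ppp1r15a (0.13) were among those that did not pass. The count of 9 was 5 without WT ipsilateral 3 h replicate 1 (5.94% of all genes called), 6 h replicate 1 (11.2%) or 3 h replicate 2 (8.8%), or without labelled Neil1-KO ipsilateral 3 h replicate 1 (13.2%). It was 3 without Neil2-KO ipsilateral 3 h replicate 1 (4.78%) and 4 without its 6 h replicate 2 (9.59%). In the contralateral libraries 1 of 45 was called, Atf6b, which fell by 0.30 on the log2 scale (0.332% of all genes called, 0.114% upward and 0.218% downward). That call was lost without the animals of high Xist and kept in 8 of 24 fits that left out 1 library. At an unadjusted p under 0.05 (limma) there were 10 of the 45, all lower at 6 h, where 6.85% of all genes were lower and 5.77% higher. The median of Xbp1 went from 1598 to 1188 normalized counts contralaterally and from 1754 to 1924 ipsilaterally. Xbp1 was called in neither of these comparisons.

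**Figure D4:**
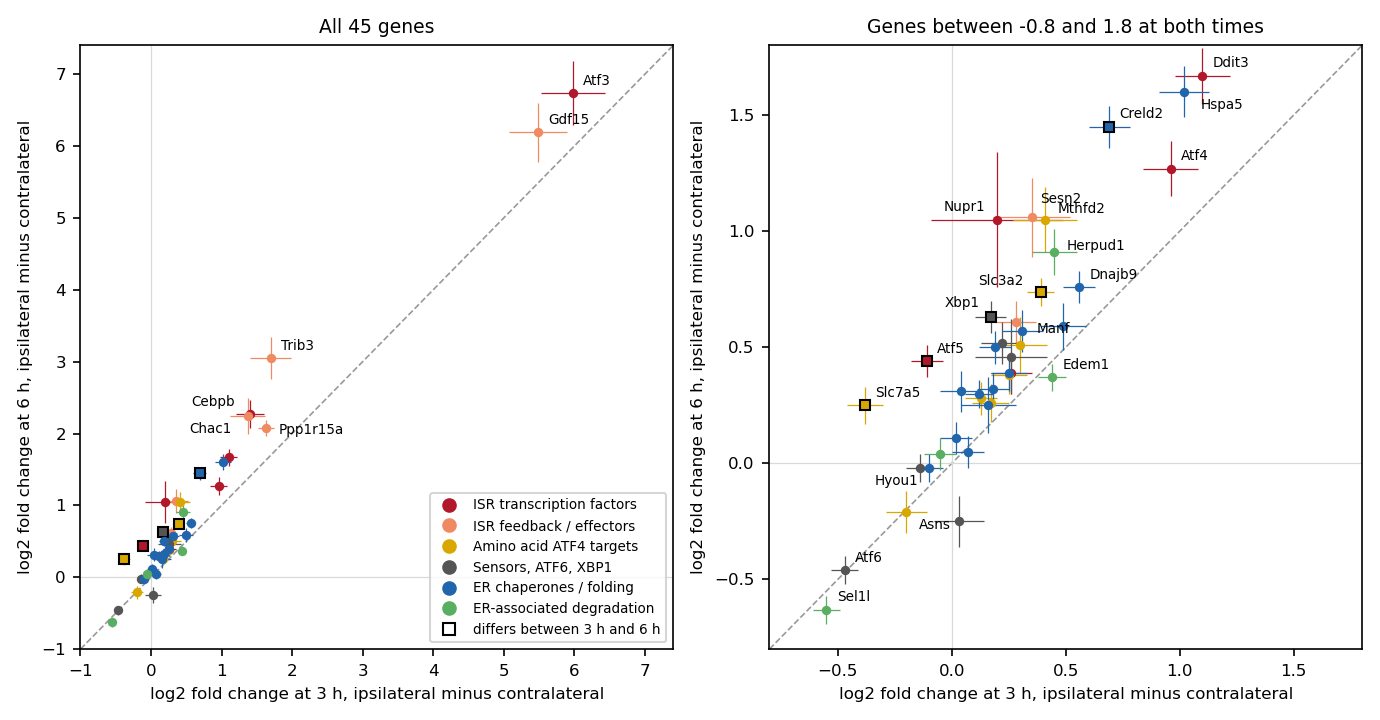
Log2 difference between sides at 3 h (horizontal) against 6 h (vertical), mean over genotypes with SE bars (6 libraries per side and time), for all 45 genes on the left and for those between -0.8 and 1.8 on the right. Points above the dashed line of equal change have a higher log2 difference at 6 h. Squares mark the 5 genes whose difference changed with time, Creld2, Slc7a5, Atf5, Xbp1 and Slc3a2.

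The genotypes were compared next, since the series profiles hypoxia-ischemia in pups deficient for either glycosylase. None of the 45 genes was called in any of 6 comparisons of a knockout with WT. For the side response (ipsilateral minus contralateral, mean over both times) limma called 0% of all genes for either knockout. On the contralateral side 0.103% and 0.0817% of all genes were called, and on the ipsilateral side 9.31% and 0.109%. At an unadjusted p under 0.05 there were 5 of the 45 genes in the side response, 11 contralaterally and 8 ipsilaterally for labelled Neil1-KO, and 1, 6 and 0 for Neil2-KO. Of all genes tested, 14.4%, 6.76% and 28.8% were under the same unadjusted p for labelled Neil1-KO, and 5.31%, 8.61% and 5.80% for Neil2-KO. The quasi-likelihood test of edgeR and the Wald test of DESeq2 also called 0 of the 45 in each of the 6. For labelled Neil1-KO against WT ipsilaterally they called 1659 and 2426 of all 18364 genes. In the other comparisons they called at most 20 and 84.

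The intervals of these differences were wide for the genes with the strongest response. In labelled Neil1-KO the side response of Atf3 differed from WT by 1.39 (95% interval -0.26 to 3.03), of Trib3 by 0.74 (-0.33 to 1.81), of Hspa5 by 0.31 (-0.08 to 0.70), of Ddit3 by 0.19 (-0.23 to 0.61) and of Atf4 by 0.05 (-0.38 to 0.48). In Neil2-KO the same values were 0.37 (-1.27 to 2.02), -0.07 (-1.14 to 1.00), -0.02 (-0.41 to 0.37), 0.15 (-0.28 to 0.57) and 0.22 (-0.22 to 0.65). Creld2 had the smallest p among the 45 genes, with a side response that was 0.69 higher in labelled Neil1-KO than in WT (0.37 to 1.01, adjusted p = 0.303). Its contralateral level was lower there (125.1 to 174.4 against 170.3 to 248.9 normalized counts in WT) and its ipsilateral level higher (377.9 to 430.5 against 269 to 390.7). The contralateral difference of Creld2 was -0.44 (-0.66 to -0.21, adjusted p = 0.197) and the ipsilateral one 0.26 (0.03 to 0.48, adjusted p = 0.13). Without labelled Neil1-KO ipsilateral 6 h replicate 1 the side response of Creld2 (0.70, adjusted p = 0.012) and of Asns (-0.48, adjusted p = 0.022) passed, and so did 11.4% of all genes.

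The contralateral levels of labelled Neil1-KO were the lower ones for all 11 genes with an unadjusted p under 0.05, where 3.92% of all genes were under it and lower and 2.84% under it and higher. They were Atf3 (-1.41), Trib3 (-1.19), Cebpb (-0.75), Creld2 (-0.44), Ppp1r15a (-0.40), Sdf2l1 (-0.38), Ddit3 (-0.37), Herpud1 (-0.36), Xbp1 (-0.23), Atf6 (-0.18) and Hyou1 (-0.15), and none passed the adjustment. Several values rested on WT contralateral 3 h replicate 1, without which they were -0.65 for Atf3, -0.22 for Ppp1r15a, -0.23 for Ddit3 and -0.15 for Xbp1. Without WT contralateral 3 h replicate 2 that of Atf3 was -2.17. Trib3 stood at -0.75 without labelled Neil1-KO contralateral 3 h replicate 2, and Sdf2l1 at -0.24 without WT contralateral 6 h replicate 1. With the choroid plexus term Atf3 was at -0.85, Ddit3 at -0.22 and Ppp1r15a at -0.25, and without the animals of high Xist Xbp1 was at -0.14. All 11 were negative in all 8 other fits and in all 24 that left out 1 library. These fits share most of their libraries with the fit that picked the 11 genes. A kept sign was thus nearly fixed in advance and is no test. For Neil2-KO the largest contralateral value was -0.43 for Ern1 (-0.85 to -0.01, adjusted p = 0.57), where replicate 2 at 6 h held 94.3 and replicate 1 held 222 normalized counts. Without that replicate 1 Ern1 passed, with -0.74 (adjusted p = 0.0473), where 0.692% of all genes were called.

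**Figure D5:**
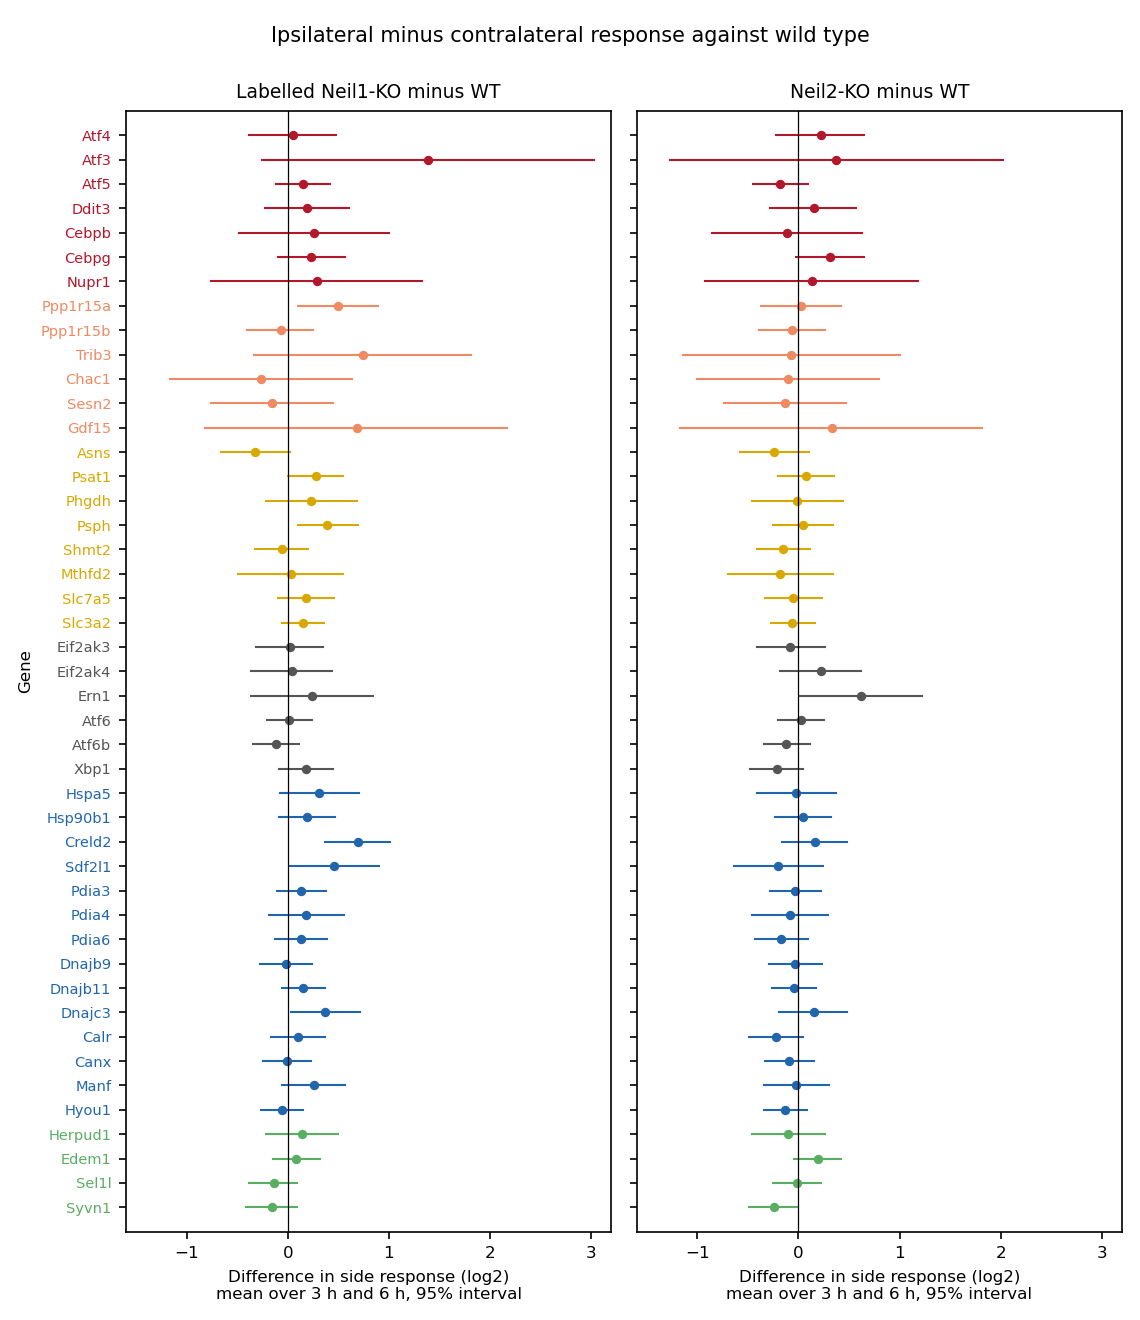
Difference from WT in the side response (log2, horizontal axis, mean over 3 h and 6 h, 4 libraries per side and genotype) for the 45 genes (vertical axis, coloured by class), as fitted value with 95% interval. No gene passed the adjusted threshold in either knockout; the interval of Creld2 in labelled Neil1-KO, 0.37 to 1.01, lies farthest from 0.

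In 2 ipsilateral libraries of labelled Neil1-KO several effectors were low and many chaperones high. Lowest and highest values were counted for the 45 genes only, with no share over all genes beside them. The counts are therefore not read as particular to these genes. Over all genes, chi-square per degree of freedom between the ipsilateral replicates of labelled Neil1-KO was 25.9 at 3 h and 53.8 at 6 h. At 3 h replicate 1 had the lowest value of the 6 ipsilateral libraries for 13 of the 45 genes and the highest for 16. It was lowest for 4 of 6 feedback and effector genes and highest for the other 2, Ppp1r15a (2550 normalized counts) and Gdf15 (231). Of the 14 chaperones it was highest for 9 and lowest for 2. Chac1 stood at 225 against 489.7 in the other replicate, Sesn2 at 374.5 against 619.7 and Trib3 at 25.2 against 49.31 normalized counts. Labelled Neil1-KO ipsilateral 6 h replicate 2, the library with the most reads on unnamed lines and an animal of high Xist, had the lowest value of the 6 ipsilateral libraries of that time for 16 of the 45 genes and the highest for 11. It was lowest for 4 of 6 feedback and effector genes, 3 of 7 transcription factors, 3 of 6 sensor genes and 3 of 4 degradation genes, and highest for 7 of 14 chaperones. Chac1 stood at 181.5 there against 494 in the other replicate, Sesn2 at 367 against 905, Cebpb at 146 against 295 and Herpud1 at 709 against 1094 normalized counts. Asns stood at 1079 against 1679. By contrast Atf3 (3461 against 3124), Gdf15 (156.5 against 190) and Hspa5 (14381 against 14839) lay near the other replicate. Without the 6 h replicate 1, so that replicate 2 alone stood for its group, 11 of the 45 genes passed between labelled Neil1-KO and WT ipsilaterally: Cebpb, Chac1, Sesn2, Asns, Psat1, Psph, Pdia4, Manf, Hyou1, Herpud1 and Syvn1. The share of all genes called rose at the same time from 9.31% to 28.6%, and 11 of 45 is not above it. Leaving out WT ipsilateral 6 h replicate 1 gave 5 of the 45 and 15.3% of all genes, and labelled Neil1-KO ipsilateral 3 h replicate 2 gave 4 and 15.9%. At 6 h the summed neuron markers were 81904 in replicate 2 against 115503 in replicate 1, those of astrocytes 114282 against 66568, of endothelium 13851 against 8146, of microglia 8868 against 3706 and of choroid plexus 26487 against 14964. Of the 12 groups this one had the largest chi-square per degree of freedom between its replicates, 53.8 where the others lay between 3.08 and 30.7. At 3 h the astrocyte sum was 107816 in replicate 1 against 65362 in replicate 2. The part of RNA quality or cell content in the values of these 2 libraries was not tested.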

How the data were processed

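Hippocampal total RNA was sequenced in 24 libraries, 2 for each of 12 groups, and libraries were grouped by their titles, since the genotype tag of the libraries titled Neil2-KO reads NEIL1-KO. The submitters' processing notes name featureCounts, DESeq2, HISAT2, Trim Galore and SAMtools, and the builds GRCm39 and mm39; versions, roles, annotation and strand setting are not given in the sources used here. The deposited table holds a normalized signal, counts divided by a size factor per library, as read from its values, since 100.0% of values are whole multiples of 1 read (tolerance 1e-06). Depth was 17771293 to 29252067 reads per library, and intervals of read ratios cover counting error only. Of 33084 lines 10770 (32.55%) have no gene name and hold 8.41% to 12.48% of reads; they were left out of tests.

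Named genes with a value of at least 10 in at least 2 libraries were tested with limma 3.58.1 (trend, R 4.3.3) on log2(value + 1), fitting 12 group means in 17 comparisons, two-sided, with Benjamini-Hochberg adjustment over all 18364 genes and a threshold of 0.05. Fold changes are on the log2(value + 1) scale, which understates those of low genes. Alternatives were a pseudocount of 5, no filter, edgeR 4.0.16 and DESeq2 1.42.0 on recovered reads, only the compared groups, the animal as a block, a choroid plexus term, leaving out animals of high Xist, and leaving out each library. The limma fit was tested on simulated counts for the comparison of WT ipsilateral with WT contralateral at 6 h. Members, classes and lists were chosen with earlier results of these data known. Values of every library are printed for the 3 genes per class (2 for degradation) with the smallest adjusted p at 6 h and for the 2 called genes whose side response changed most with time; in other lists the 2 highest and 2 lowest called genes at 6 h are named. The series text says that both sides were collected from each replicate, so same-numbered libraries of a genotype and time were paired by animal. The correlation of their deviations from the group means was -0.00576 and -0.00334 in WT, 0.271 and 0.155 in labelled Neil1-KO, and 0.0537 and 0.035 in Neil2-KO (3 h and 6 h). Exon overlaps are from GENCODE vM21 (GRCm38) and promoters from RefSeq (GRCm38.p6), used for names and sequence only.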

Additional observations from a re-analysis of the deposited data

Results flagged for a closer look

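For 5 of the 45 genes the difference between sides itself differed between 3 h and 6 h, by a test of that interaction (limma, mean over 3 genotypes, adjusted over all genes). The change was 0.76 for Creld2 (log2, adjusted p = 0.00725), 0.63 for Slc7a5 (adjusted p = 0.0105), 0.55 for Atf5 (adjusted p = 0.0177), 0.46 for Xbp1 (adjusted p = 0.0309) and 0.35 for Slc3a2 (adjusted p = 0.0374). Creld2 and Slc3a2 were higher ipsilaterally at both times, Xbp1 and Atf5 passed at 6 h and not at 3 h, and Slc7a5 passed in opposite directions. None of the 5 calls was kept in all 8 other fits, which include the one without the animals of high Xist. With the animal as a block those of Xbp1 (limma, adjusted p = 0.0516) and Slc3a2 (0.0656) were lost.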

How the results depend on the processing

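Of the 37 genes called at 6 h as the mean over genotypes 33 were called in all 8 other fits and in all 24 fits that left out 1 library, and of the 24 called at 3 h 18 were. Counts of called members over the fits that left out 1 library ran from 2 to 12 in WT at 3 h and 19 to 28 at 6 h, 11 to 22 and 26 to 36 in labelled Neil1-KO, 4 to 16 and 17 to 25 in Neil2-KO, and 19 to 27 and 36 to 38 for the mean over genotypes. They ran from 3 to 8 for the change of the side response with time, 0 to 3 for contralateral time and 3 to 11 for ipsilateral time. For labelled Neil1-KO against WT they ran from 0 to 2 in the side response, 0 to 0 contralaterally and 0 to 11 ipsilaterally, and for Neil2-KO from 0 to 0, 0 to 1 and 0 to 0. The shares of all genes called moved as well and are not given beside these ranges, so the ranges are not read as particular to the members. For the fits that follow, the counts over all genes stand in brackets. Fitting only the compared groups gave 12 in place of 21 in labelled Neil1-KO at 3 h (1852 in place of 3130), 20 in place of 35 at 6 h (2685 in place of 7156), 3 in place of 1 for contralateral time (228 in place of 61) and 3 in place of 9 for ipsilateral time (701 in place of 2325). Without the animals of high Xist labelled Neil1-KO at 6 h gave 22 (2996), the change of the side response 2 in place of 5 (24 in place of 348) and contralateral time 0 (9). DESeq2 gave 11 for the change of the side response (798), 4 for contralateral (268) and 14 for ipsilateral time (2870), and the choroid plexus term gave 3 for contralateral time (89). With the replicate block, which pairs both sides of an animal, the change of the side response gave 3 (370). The block also ended the calls of Shmt2 in WT at 6 h and of Psph and Edem1 in labelled Neil1-KO at 3 h, and gave new ones to Cebpb in WT and Neil2-KO and Chac1 in Neil2-KO at 3 h, and to Eif2ak4 in labelled Neil1-KO and Asns in Neil2-KO at 6 h; beside these and the blocked values given with the results it changed no other call. No value changed sign while called. The share of higher among called genes moved from 58.2% to 45.9% with DESeq2, 41% with only the compared groups and 41.9% without the animals of high Xist in WT at 3 h. With only the compared groups it was 33.9% in Neil2-KO at 3 h in place of 46.4%, and for ipsilateral time it was 61.9% in place of 40.6%, and 56.7% without the animals of high Xist. With DESeq2 it moved from 75.6% to 61.2% for the change of the side response. Among the genes called between labelled Neil1-KO and WT ipsilaterally, 20.5% of 1710 were higher, against 32.2% with edgeR and 32.6% with DESeq2, and between Neil2-KO and WT 40% of 20 against 28.9% with DESeq2 and 77.8% of 9 with only the compared groups. Contralaterally 23.1% of 117 were higher in labelled Neil1-KO with only the compared groups, in place of 42.1% of 19. The 1710 were 4 with only the compared groups, 181 with the choroid plexus term and 710 without the animals of high Xist. The cause of these shifts was not tested. Low counts limit Trib3, Nupr1 and contralateral Gdf15.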

Other observations

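The contralateral libraries of 3 h differed among themselves in these genes. Here too lowest and highest values were counted for the 45 genes only, with no share over all genes beside them. WT contralateral 3 h replicate 1 had the highest value of the 6 for 14 of the 45 genes, among them Atf3 (444 normalized counts against 53.24 in replicate 2), Atf4 (2836) and Ppp1r15a (1168). Labelled Neil1-KO contralateral 3 h replicate 2 had the lowest value for 23 of the 45, with Atf3 at 13.1. On the ipsilateral side at 6 h, WT replicate 2 had the lowest value for 23 of the 45 genes, with Atf3 at 2551 and Hspa5 at 11339 against 4146 and 18224 in replicate 1. Of the 14 chaperones it was lowest for 13. Its marker sums also differed from those of replicate 1: hippocampal subfields 7283 against 13453, thalamus 4446 against 3307, astrocytes 54064 against 73353 and oligodendrocyte lineage 24621 against 10827. Without it the ipsilateral differences of labelled Neil1-KO from WT were 0.16 for Pdia4 and for Manf, in place of 0.29 and 0.30. The part of cell content in these values was not tested. Neil2-KO contralateral 6 h replicate 2 had the highest value of its 6 libraries for 19 of the 45 genes and the lowest for 6. It was highest for 11 of the 14 chaperones and 6 of the 8 amino acid targets. Atf4 (1192) and Ern1 (94.32) were among the genes for which it was lowest. Replicate 1 of that group was highest for 18 of the 45.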
